A study of Mus musculus with 2 samples.

Results

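The transcription factors of the stem-cell program were examined in granulocyte-monocyte progenitors (GMPs), the bone marrow cells from which granulocytes and monocytes arise. The 9 genes were Hoxa5, Hoxa7, Hoxa9, Hoxa10, Meis1, Mecom, Hlf, Lmo2 and Tal1, chosen by symbol from the 24421 symbols that were measured, by a rule that sets no threshold on their values. Bulk RNA-seq was available for female non-tumor-bearing mice (NTB-GMP, 1 library) and for female mice carrying orthotopic 4T1 tumors (4T1-GMP, 1 library). The tumor line 4T1 is a mouse mammary carcinoma cell line. By the labels both groups had the F1 semi-syngeneic (H-2b/d) background, whereas the methods of the study name the strains C57BL/6 and BALB/c, with young adult females throughout. The number of mice behind each of these libraries and the time of tumor growth were not given in the sources used here. The GMPs were purified by flow cytometry, and for GMP cultures the study gated lineage-depleted marrow by Sca-1, CD150 and CD16/32 as well as c-Kit. With 1 library per group there was no replicate error, no test of the condition was possible, and the intervals below cover counting error alone: amplified reads that carry no molecular identifiers are not independent molecules. Where a pair of values is given without its library, NTB-GMP comes first.

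HOXA proteins are homeodomain transcription factors that keep stem and progenitor cells in a self-renewing state, and their genes are normally silenced as myeloid cells mature. MEIS1 is a homeodomain partner that binds DNA together with HOXA9 and PBX proteins, and the forced expression of HOXA9 with MEIS1 transforms myeloid progenitors. HLF and MECOM mark the hematopoietic stem cell, whereas TAL1 and LMO2 sit in a DNA-binding complex, with LDB1 and GATA factors, that serves stem cells, erythroid cells and megakaryocytes.

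The 4T1-GMP library held much less Meis1 RNA than the NTB-GMP library, at close to the same level of Hoxa9. Hoxa7 and Hlf were lower by a smaller amount, Lmo2 and Tal1 were slightly lower, and Mecom was low in both libraries and lower still in 4T1-GMP. Of the 9 genes, 7 had a mean RPKM (reads scaled to gene length and library size) of at least 1, which was the minimum for the comparison. Of these 7, 1 gene, Meis1, was at least 2-fold lower in 4T1-GMP, against 4.92% of the 10378 genes compared, and 0 were at least 2-fold higher, against 3.25%. With the fold set at 1.5, 3 were lower (Meis1, Hlf and Hoxa7), against 11.6% of genes compared. Without a minimum, over the 14833 genes above 0 in either library, 2 of the 9 were at least 2-fold lower (Meis1 and Mecom), against 8.4%. The median log2 ratio of 4T1-GMP over NTB-GMP, each taken as RPKM plus a pseudocount of 0.1, was -0.39 for the 7 genes and 0.05 for all genes compared. A total of 6 of the 7 had a log2 ratio below 0, as did 45.3% of all genes compared.

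The library sizes behind the RPKM were 10180365 for NTB-GMP and 30016263 for 4T1-GMP, so low genes were measured more coarsely in NTB-GMP. Rn45s, the ribosomal RNA precursor, held 16.95% of the former and 6.98% of the latter, and leaving it out of both would lower every log2 ratio of the RPKM by 0.16. With that change 60.9% of genes compared were lower in 4T1-GMP, against 45.3% with the values as deposited, and a log2 ratio between 0 and 0.16 turned negative, those of Hoxa9, Hoxa10, Hoxb4 and Wdr5 below among them. Transcripts of GMP granule proteins were abundant in both libraries, with Mpo, the myeloperoxidase of primary granules, at 5162 RPKM in NTB-GMP against 5625 RPKM in 4T1-GMP. Of 15 GMP and early granulocyte markers compared, however, 2 were at least 2-fold lower in 4T1-GMP, Irf8 (32.0 and 4.45 RPKM, -2.82) and Cd34, and 4 were at least 2-fold higher, Ms4a3 (1.35), Prtn3 (1.24), Ctsg (1.11) and Csf3r (1.09). Of the genes behind the gate, Kit was at 78.5 and 49.1 RPKM (log2 ratio -0.67), the CD16 gene Fcgr3 at 53.1 and 28.6 RPKM (-0.89) and the CD32 gene Fcgr2b at 47.3 and 64.6 RPKM (0.45), and Ly6a, which encodes Sca-1, had 0 and 4 reads. Markers of mature neutrophils differed between the libraries as well. Of 14 mature neutrophil markers, for granule and other proteins, 12 were at least 2-fold higher in 4T1-GMP. The 14 summed to 532 RPKM in NTB-GMP against 4103 RPKM in 4T1-GMP, mostly S100a8 (208 and 1594 RPKM) and S100a9 (189 and 1974 RPKM). The lineage depletion that the study describes for GMP cultures used antibodies to Gr-1, a neutrophil antigen, along with CD3, B220 and Ter-119. The part of these markers in the differences below was not tested.

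The promoter sequences are shown for Meis1 and Hoxa9, at both ends of the range of log2 ratios among the 7 genes compared, and for Tal1. They let the reader see which motifs of the factors discussed here stand at the start sites. They are RefSeq windows from 250 bases before to 50 bases after the start site, and 8 of the 9 genes had such a window, all but Lmo2. Capitals mark matches on either strand to GAGGAA, the core of the motif of PU.1, the myeloid factor that Spi1 encodes, and to AGATAA, a motif of GATA factors. No capitals mark overlapping matches in these windows.

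Meis1 (GRCm38.p6, chr11:19018920-19019219, minus strand): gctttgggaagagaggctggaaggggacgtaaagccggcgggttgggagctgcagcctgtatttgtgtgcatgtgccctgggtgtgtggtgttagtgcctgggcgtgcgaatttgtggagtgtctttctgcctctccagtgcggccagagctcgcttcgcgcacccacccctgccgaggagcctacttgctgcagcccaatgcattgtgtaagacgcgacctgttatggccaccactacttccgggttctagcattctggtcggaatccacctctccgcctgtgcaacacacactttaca
Hoxa9 (GRCm38.p6, chr6:52227321-52227620, minus strand): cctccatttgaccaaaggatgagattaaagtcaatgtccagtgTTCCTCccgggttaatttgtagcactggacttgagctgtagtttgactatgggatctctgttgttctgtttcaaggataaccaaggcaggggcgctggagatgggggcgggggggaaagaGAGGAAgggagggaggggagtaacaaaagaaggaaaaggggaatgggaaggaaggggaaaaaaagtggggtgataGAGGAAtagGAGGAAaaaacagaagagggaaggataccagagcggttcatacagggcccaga
Tal1 (GRCm38.p6, chr4:115056176-115056475, plus strand): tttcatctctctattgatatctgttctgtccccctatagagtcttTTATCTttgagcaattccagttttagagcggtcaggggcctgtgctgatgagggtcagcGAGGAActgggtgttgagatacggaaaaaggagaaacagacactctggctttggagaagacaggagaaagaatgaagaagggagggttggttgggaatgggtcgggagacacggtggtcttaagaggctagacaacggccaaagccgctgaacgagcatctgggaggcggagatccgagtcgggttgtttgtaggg

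The Hoxa9 window held 4 matches to GAGGAA. At least 1 match stood in 28.3% of the 32817 RefSeq promoter windows of this length, and 4 or more in 0.125%. The limit of 4 is the Hoxa9 count itself, the highest for any of the 6 motifs in the 11 windows searched, so this share is not a test. The Tal1 window shown held 1 match to GAGGAA and 1 to AGATAA, a motif found in 11.2% of windows, and the other Tal1 window held no match to any motif searched. The Meis1 window held no match to either, nor to TGACAG (19.2% of windows), bound by MEIS proteins, TGATTNAT (3.22%), bound by HOX with PBX, CAGCTG (16.3%), an E-box of the kind that TAL1 binds, or TATAAA (13.6%), the TATA box. TGACAG was found in 1 of the Mecom windows, CAGCTG in the Hoxa5 window and TATAAA in 1 of the Hoxa10 windows. A match describes the letters of the window and does not show binding.

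Hoxa9 and its neighbors stand together in the HOXA cluster on chromosome 6. In the GENCODE M21 annotation of GRCm38, the build that the submitters' processing notes call mm10, Hoxa5 spans 52201754 to 52204587, Hoxa7 spans 52214491 to 52221854, Hoxa9 spans 52223100 to 52231089 and Hoxa10 spans 52231197 to 52240854, all on the minus strand. Hoxa9, the HOXA gene most tied to myeloid leukemia, had 10.1 RPKM from 332 reads in NTB-GMP, against 10.5 RPKM from 1020 reads in 4T1-GMP. Its level was about the same in both libraries, with a log2 ratio of 0.06 and a 95% Clopper-Pearson interval on the reads of -0.12 to 0.24. Library sizes without Rn45s turned the ratio to -0.10. Hoxa7, which lies next to Hoxa9 in the cluster, had 2.52 RPKM from 50 reads in NTB-GMP, against 1.55 RPKM from 91 reads in 4T1-GMP. It was lower in 4T1-GMP, with a log2 ratio of -0.66 (interval -1.21 to -0.17), and 9.77% of the genes compared had a lower ratio. Hoxa5, a gene of the central part of the cluster, had 1.36 RPKM (26 reads) and 1.01 RPKM (57 reads). Its log2 ratio of -0.39 had an interval from -1.12 to 0.30, so a difference of this size was not detectable at this depth. Hoxa10, at the far side of Hoxa9, fell under the minimum, with 0.16 RPKM (5 reads) in NTB-GMP and 0.17 RPKM (16 reads) in 4T1-GMP. Its log2 ratio of 0.07 had an interval from -1.40 to 1.92, and library sizes without Rn45s gave -0.03. The 4 HOXA genes together came to 14.1 RPKM in NTB-GMP against 13.3 RPKM in 4T1-GMP, most of it Hoxa9.

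**Figure D1:**
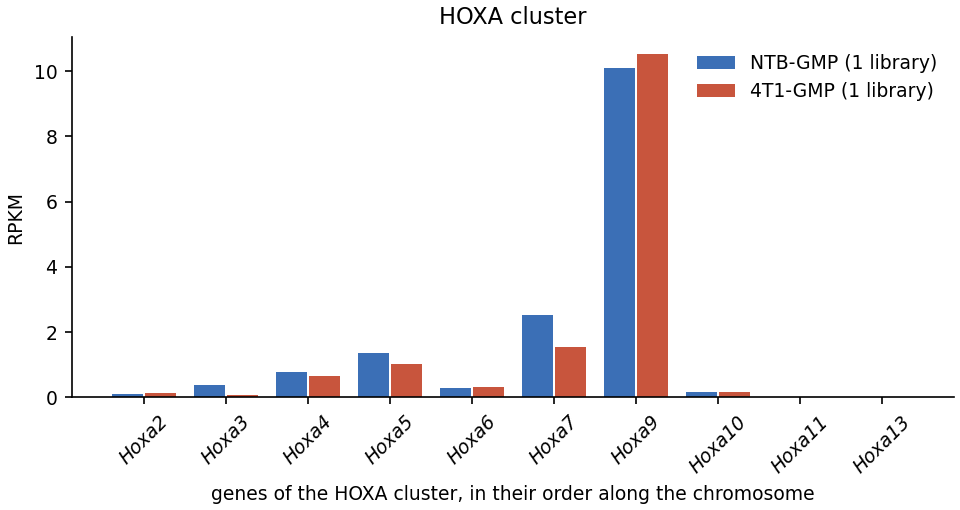
RPKM of protein-coding genes of the HOXA cluster from Hoxa2 to Hoxa13, in their order along the chromosome, with 1 bar for the NTB-GMP library and 1 bar for the 4T1-GMP library and an axis that starts at 0. Hoxa9 stands above 10 RPKM in both libraries, Hoxa7 at 2.52 and 1.55 RPKM, and Hoxa11 and Hoxa13 are listed at 0.

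The rest of the cluster was near the limit of detection. None of Hoxa2, Hoxa3, Hoxa4, Hoxa6, Hoxa11 and Hoxa13 reached a mean RPKM of 1. Hoxa4 was the nearest to it, with 0.77 RPKM (6 reads) in NTB-GMP and 0.65 RPKM (15 reads) in 4T1-GMP. Hoxa3 had 0.39 RPKM (10 reads) and 0.066 RPKM (5 reads), Hoxa6 had 0.28 and 0.33 RPKM, and Hoxa2 had 0.11 and 0.13 RPKM. Hoxa11 and Hoxa13 were listed at 0 in both libraries, as was Mir196b, whose hairpin lies within the annotated Hoxa9 gene. Of the noncoding RNAs of the cluster, Hottip, Hoxaas2 and Hoxa11os were also listed at 0 in both libraries and Hoxaas3 had 1 read in NTB-GMP. Among 28 HOXB, HOXC and HOXD genes, 20 were listed at 0 in both libraries and 1 reached the minimum. This was Hoxb4, a factor that expands stem cells when overexpressed, with 2.18 RPKM (57 reads) and 2.32 RPKM (179 reads) and a log2 ratio of 0.09 (interval -0.35 to 0.55). Genes of the cluster overlap their antisense RNAs in the annotation, and whether the counting used strand is not given in the sources used here. Hoxa7 shares exon bases with the antisense Hoxaas3, Meis1 with Gm37818 and Gm16140, and Mecom with Mecomos, and without strand their reads cannot be told apart.

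Meis1, on chromosome 11 from 18879817 to 19018985, minus strand, showed the greatest difference of the 9 genes. It had 17.1 RPKM from 599 reads in NTB-GMP, against 4.73 RPKM from 489 reads in 4T1-GMP, which made it 3.61-fold lower in the deeper library. The log2 ratio was -1.83 (interval of the reads -2.03 to -1.68), and 1.44% of the genes compared had a lower one. The RPKM of Meis1 stood above that of 71.4% of the genes above 0 in NTB-GMP and of 43.8% of those above 0 in 4T1-GMP. The ratio of Meis1 to Hoxa9 within a library does not depend on the library size, and it went from 1.69 in NTB-GMP to 0.45 in 4T1-GMP. On the log2 scale this was a change of -1.91 (exact conditional interval on the reads -2.17 to -1.66). For Hoxa7 to Hoxa9 the change was -0.76 (interval -1.30 to -0.19), and for Hoxa5 to Hoxa9 it was -0.49 (interval -1.21 to 0.27). In bulk samples, fewer cells that carry Meis1 and less Meis1 RNA per cell cannot be told apart. Genes of 2000 to 4000 bases, the range of the length behind the Meis1 value, had a median log2 ratio of 0.05, against 0.16 for shorter and -0.10 for longer genes.

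**Figure D2:**
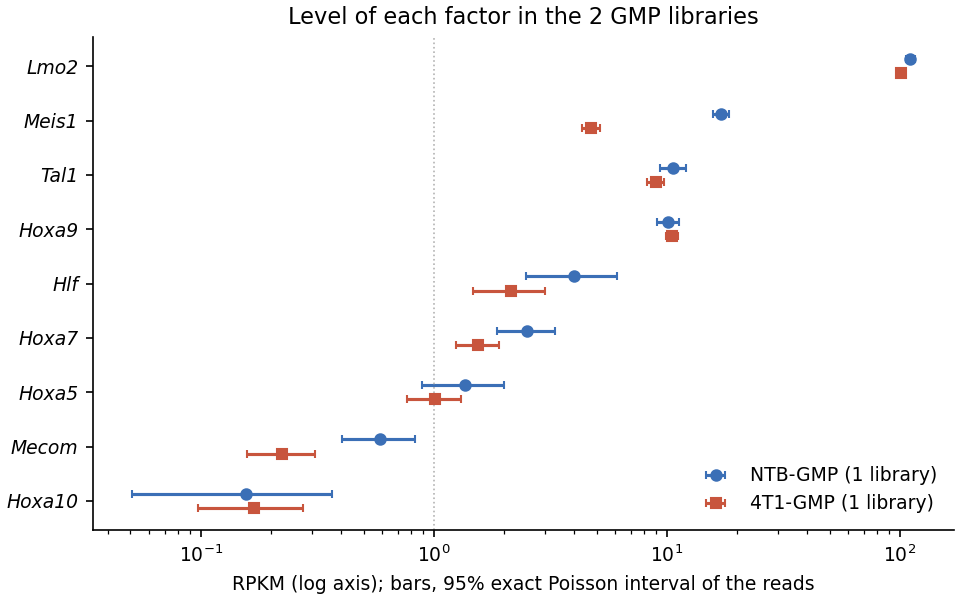
RPKM of each factor on a log axis in the NTB-GMP library (circles) and the 4T1-GMP library (squares), ordered by the level in NTB-GMP, with the 95% exact Poisson interval of the reads as bars and a dotted line at 1 RPKM. The intervals of Meis1, Mecom and Lmo2 do not overlap between the libraries, and those of Hoxa9 lie on top of each other. The bars of Hlf use recovered reads that are a lower bound, so they may be too wide.

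Hlf and Mecom, the factors most restricted to stem cells, were the next lowest in 4T1-GMP. Hlf, a PAR bZIP factor on chromosome 11 from 90336536 to 90390895, had 4.01 RPKM in NTB-GMP against 2.13 RPKM in 4T1-GMP. The log2 ratio was -0.88, and 6.19% of the genes compared had a lower one. The recovered reads, 21 and 33, are a lower bound, since the length that goes with them is 515 bases and the longest annotated Hlf transcript has 5642 bases. With these reads the interval ran from -1.74 to -0.04, and with 11 times as many (231 and 363), which brings the length to 5665 bases, it ran from -1.15 to -0.66. Mecom, a zinc-finger factor encoded on chromosome 3 from 29951296 to 30548008, had 0.59 RPKM (33 reads) in NTB-GMP and 0.22 RPKM (37 reads) in 4T1-GMP. It was 2.63-fold lower in 4T1-GMP without a pseudocount, and its log2 ratio with one was -1.09 (interval of the reads -2.11 to -0.67). Mecom stood under the minimum mean RPKM and is left out of the counts above that use this minimum. Relative to Meis1, Mecom changed by 0.46 on the log2 scale (interval -0.28 to 1.2), so the depth did not separate the difference of Mecom from that of Meis1. The same ratio for Hlf was 0.94 (interval 0.09 to 1.83), so Hlf was lower by less than Meis1.

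Lmo2 and Tal1 encode a LIM-domain adaptor and the basic helix-loop-helix factor that it binds. Lmo2, on chromosome 2 from 103957986 to 103981878, was the most abundant of the 9 genes, with 110.6 RPKM from 2140 reads in NTB-GMP, against 101 RPKM from 5761 reads in 4T1-GMP. It was slightly lower in 4T1-GMP, with a log2 ratio of -0.13 (interval -0.20 to -0.06), a value that 33.9% of genes compared fell below. Tal1, on chromosome 4 from 115056426 to 115071755, had 10.7 RPKM (232 reads) and 8.93 RPKM (573 reads), a log2 ratio of -0.25 (interval -0.48 to -0.03). The ratio of Tal1 to Lmo2 was 0.096 in NTB-GMP and 0.088 in 4T1-GMP, a log2 change of -0.12 with an interval of -0.36 to 0.11. Over the 7 genes compared, 5 had an interval of the reads wholly below 0 (Meis1, Hlf, Hoxa7, Tal1 and Lmo2) and 0 had one wholly above it. Among all genes compared these shares were 28% and 36.3%.

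**Figure D3:**
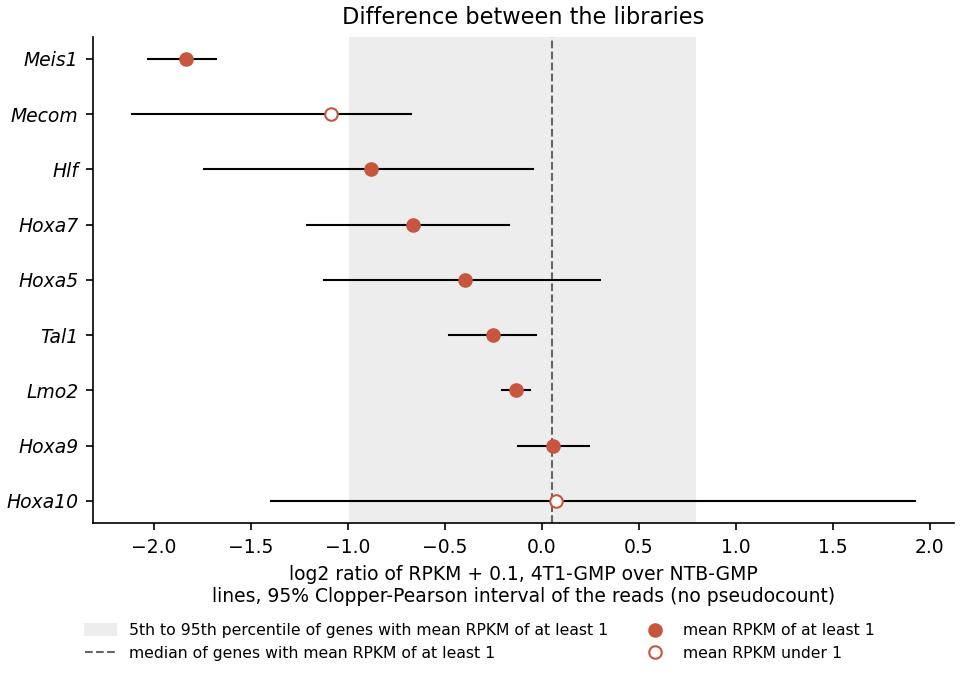
Log2 ratio of RPKM + 0.1 in 4T1-GMP over NTB-GMP for each factor (points, open for the 2 genes with a mean RPKM under 1), with the 95% Clopper-Pearson interval of the reads as lines, the 5th to 95th percentile of all genes compared as a gray band (-0.99 to 0.79) and their median as a dashed line. Meis1 at -1.83 lies outside the band with its whole interval, and Hoxa9 at 0.06 lies at the median.

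The order of levels differed in the places of Meis1 and Hoxa9. In NTB-GMP the order from high to low was Lmo2, Meis1, Tal1, Hoxa9, Hlf, Hoxa7, Hoxa5, Mecom and Hoxa10. In 4T1-GMP, Meis1 had moved behind Hoxa9 and Tal1, and Hoxa9 stood ahead of Tal1. Counting intervals of neighbors overlapped for Tal1 and Hoxa9 in NTB-GMP, for Hlf and Hoxa7 and for Hoxa7 and Hoxa5 in both libraries, and for Mecom and Hoxa10 in 4T1-GMP. The Hlf intervals used the recovered reads, a lower bound, so they may be too wide and the overlap of Hlf with Hoxa7 is not settled. The most and least abundant of the 7 genes compared differed 81.3-fold in NTB-GMP and 99.8-fold in 4T1-GMP. With 2 libraries, the likeness of a gene to these factors rests on a single ratio. Of the factor, cofactor and target genes listed next, cell type markers left aside, Tcf12 (-0.41), Ezh2 (-0.37) and Myc (-0.36) had the log2 ratios nearest to the median of the 7.

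The other TALE homeodomain proteins, which include the PBX cofactors of HOXA9, had a smaller median difference than Meis1. Of 10 such genes 7 were compared, with a median log2 ratio of -0.28, and 1 was at least 2-fold lower. This was Pbx4, with 2.92 RPKM (40 reads) and 0.32 RPKM (13 reads) and a log2 ratio of -2.84. Pbx2, the most abundant PBX gene here, was slightly higher (14.8 and 17.9 RPKM, 0.27). Tgif1, a repressor of the same class, was at -0.45 (12.9 and 9.38 RPKM). Meis2 had 1 read in NTB-GMP and Meis3 was listed at 0 in both libraries, so that Meis1 was the MEIS gene with more than 1 read.

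The MLL and menin complex and DOT1L maintain HOXA and MEIS1 transcription, and Polycomb proteins silence it. Of a list of 19 genes of the first kind, which also held the caudal factors Cdx1, Cdx2 and Cdx4, 16 were compared. These 16 had a median log2 ratio of -0.18, with 2 at least 2-fold lower and 0 at least 2-fold higher. Those lower were Aff3, a member of a family of elongation factors fused to MLL in leukemia (15.2 and 3.48 RPKM, -2.09), and Mllt6, another fusion partner of MLL (6.08 and 2.94 RPKM, -1.02). Kmt2a, which encodes MLL itself, had 18.2 RPKM in NTB-GMP against 9.15 RPKM in 4T1-GMP, with a log2 ratio of -0.98 (interval -1.06 to -0.92). Dpy30, a small core subunit, was higher (38.7 and 62.9 RPKM, 0.70), as were Ash2l (24.8 and 29.4 RPKM, 0.25) and Wdr5 (40.2 and 44.2 RPKM, 0.14). Of a list of 24 Polycomb genes and related factors, among them the opposing demethylase genes Kdm6a and Kdm6b, 23 were compared, with a median of -0.23. Cbx8 was at least 2-fold lower (4.58 and 1.96 RPKM, -1.18), Cbx2 (-0.81) and Phc1 (-0.74) were lower by less, and Suz12 was at 0.22. The caudal factors Cdx1, Cdx2 and Cdx4, which act upstream of HOX genes in the embryo, were listed at 0 in both libraries and so were not compared.

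Partners of TAL1 and LMO2 spread over a wide range. Of 17 genes compared, 6 were at least 2-fold lower and 1 was at least 2-fold higher, with a median log2 ratio of -0.41. Gata2, a stem and mast cell factor of the complex, had 29.5 RPKM from 975 reads in NTB-GMP, against 5.14 RPKM from 500 reads in 4T1-GMP, with a log2 ratio of -2.50 (interval -2.68 to -2.37). Gata1, the erythroid and megakaryocytic GATA factor, had 4.23 and 0.81 RPKM (-2.26), and Runx1 had 26.4 and 10.99 RPKM (-1.26). Those higher were Lmo1, a close relative of Lmo2 with less RNA (2.65 and 5.64 RPKM, 1.06), Ssbp4 (0.54) and the ETS factor Fli1 (53.4 and 75.7 RPKM, 0.50). Spi1 encodes PU.1, whose core motif was searched in the promoters above, and it had 63.9 and 90.1 RPKM (0.50). The intervals of Gata2 and Gata1 lay wholly below those of Tal1 and Lmo2, whose lower ends were -0.48 and -0.20.

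Relatives and corepressors of MECOM and HLF went both ways. Of 9 genes compared 1 was at least 2-fold lower and 1 at least 2-fold higher, with a median log2 ratio of -0.18. Tef, a PAR bZIP factor like Hlf, was the lower (4.63 and 2.23 RPKM, -1.02), and Nfil3, a repressor that binds the same sites as PAR bZIP factors, was the higher (1.87 and 5.57 RPKM, 1.52). Prdm9 (-0.75) and Prdm2 (-0.59), of the PRDM family, were lower and the corepressor gene Ctbp2 was higher (9.40 and 11.9 RPKM, 0.34). Prdm16, the closest relative of Mecom, stood under the minimum with 0.37 RPKM (32 reads) and 0.13 RPKM (33 reads).

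Of 12 genes reported as targets of HOXA9 and MEIS1 11 were compared, with 10 log2 ratios below 0, against 45.3% of all genes compared. Their median log2 ratio was -0.61, with 4 at least 2-fold lower and 0 at least 2-fold higher. The list, like the others here, was chosen with earlier results of these data known, so these counts are not a test. A link of these genes to the level of Meis1 was not tested. Flt3, the receptor of multipotent and lymphoid-primed progenitors, had 12.6 RPKM in NTB-GMP against 2.34 RPKM in 4T1-GMP (-2.38). The survival gene Bcl2 (15.7 and 3.49 RPKM, -2.14), Sox4 (33.7 and 9.16 RPKM, -1.87) and the sialomucin Cd34 (154 and 59.4 RPKM, -1.37) were the others. Myb, needed for self-renewal, was close to equal (360 and 335 RPKM, -0.11), and Pim1, a kinase gene induced by cytokine signals, was higher (35.5 and 68.0 RPKM, 0.94). Trib2, a pseudokinase gene, stood under the minimum and is named after its values were seen. It had 40 reads in NTB-GMP against 1 read in 4T1-GMP, a log2 ratio of -3.26 with the pseudocount and of -6.88 without it, where 1 read leaves an interval of -12.2 to -4.32.

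**Figure D4:**
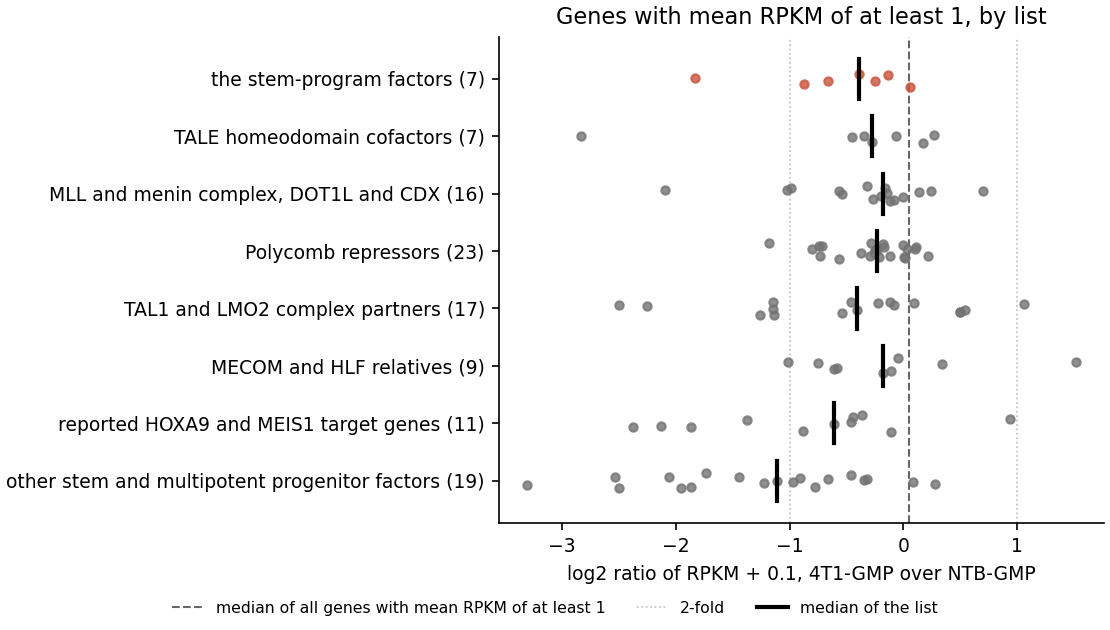
Log2 ratio of RPKM + 0.1 in 4T1-GMP over NTB-GMP for every gene compared (points) in the lists of factors, cofactors and targets, without the cell type markers, with the number of genes in brackets, the median of the list as a black bar, the median of all genes compared as a dashed line and 2-fold limits as dotted lines. The stem-program factors have a median of -0.39, between 0.06 for Hoxa9 and -1.83 for Meis1, and the other stem and multipotent progenitor factors have a median of -1.11.

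Of 19 other stem and multipotent progenitor factors compared, 10 were at least 2-fold lower and 0 at least 2-fold higher, with a median log2 ratio of -1.11. Gfi1b had 3.07 and 0.22 RPKM (-3.31), Zfpm1, the GATA cofactor FOG1, had 5.63 and 0.89 RPKM (-2.54), and Cited2 was higher (41.1 and 49.8 RPKM, 0.28). Of the 16 surface markers of stem and progenitor cells 7 were compared and 2 were at least 2-fold lower, Flt3 and Cd34, and Tie1, a receptor of endothelial and stem cells, was higher (9.42 and 12.4 RPKM, 0.39). The 16 had a summed level of 360 RPKM in NTB-GMP against 193 RPKM in 4T1-GMP. Most of it was Cd34 (154 and 59.4 RPKM) and Kit (78.5 and 49.1 RPKM), both also in the list of GMP and early granulocyte markers. Esam was listed at 0 in both libraries, and Slamf1, which encodes CD150, had 2 and 7 reads.

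Markers of other lineages, some of which use Meis1, Tal1, Lmo2 and Gata2 themselves, also differed between the libraries. Of 3 megakaryocyte markers compared 2 were at least 2-fold lower, with Itga2b at 12.8 and 4.43 RPKM, and the 11 summed to 53.9 and 35.6 RPKM while Gp6 and Treml1 were listed at 0. Of 4 erythroid markers compared 3 were at least 2-fold lower, with Klf1 at 2.18 and 0.33 RPKM, and the 13 summed to 55.9 and 77.2 RPKM, mostly the transferrin receptor gene Tfrc, which was higher (36.6 and 73.0 RPKM, 0.99), with the 5 globin genes listed at 0. Of 9 mast cell and basophil markers compared 5 were at least 2-fold lower, and the 10 summed to 637 and 309.6 RPKM. Of 10 monocyte and dendritic markers compared 6 were at least 2-fold lower, and the 13 summed to 206 and 89.4 RPKM, with Cd300c listed at 0. The 14 lymphoid markers summed to 18.3 and 14.6 RPKM, mostly Cd79b, and 1 was compared. The part of these cells in the values of Meis1 and the other factors was not tested, and 1 library per group means that the tumor, the mouse and the library preparation cannot be told apart.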

How the data were processed

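Total RNA of flow-purified GMPs was sequenced by the study, and the deposited values are RPKM, computed by the authors as reads scaled to library size and gene length, and each library lists every symbol once. The submitters' processing notes name the mm10 build, CASAVA 1.8.2, cutadapt 1.2.1, TopHat2 2.0.13, Picard 1.97, HTSeq 0.6.1 and edgeR 3.12.1, without their roles. The annotation, gene lengths and use of strand are not given in the sources used here.

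Whole reads and library sizes were recovered from the ratios of the RPKM, for 14833 of the 14833 symbols above 0 in either library (relative tolerance 6e-13), and where all of a gene's reads share a divisor the recovered number is too low. The procedure was checked on simulated data. Ratios used log2(RPKM + 0.1), which understates the change of low genes, and the 10378 genes compared had to reach a mean RPKM of 1. Intervals are 95% and exact: Poisson for a level, Clopper-Pearson for a ratio of libraries, conditional for a ratio of genes. The lowest amount taken as detected was 3 reads. No test was run, since each group had 1 library. Alternatives were pseudocounts of 1 and 0.01, other minimums, quantile normalization, centring on the median, library sizes without Rn45s and a fold of 1.5. The Hlf reads at the annotated length were added after seeing the data.

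The members and lists were chosen with earlier results of these data known. Named with values were the 9 members, HOXA genes, up to 3 of the highest and lowest ratios in each list among genes whose interval excluded 0, and the sort genes. Spi1, Myb, Prdm16, Mpo, Hoxb4, Meis2, Cd79b, Csf3r, Trib2, Kdm6a, Kdm6b, S100a8, S100a9 and genes listed at 0 were named after their values were seen. Some genes of the lists are counted but not reported here by name. Computations used Python 3.11.15, numpy 2.4.6, pandas 2.3.3 and scipy 1.17.1, with figures by matplotlib 3.10.9.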

Additional observations from a re-analysis of the deposited data

How the results depend on the processing

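The number of stem-program factors at least 2-fold lower in 4T1-GMP was 1 as reported, against 4.92% of genes compared. With all genes above 0 in either library it was 2 (Mecom, which the minimum had kept out, joined Meis1), against 8.4%. Leaving Rn45s out of both library sizes gave 2 (Hlf, at -1.04, joined), against 7.15%. A fold of 1.5 gave 3 (Hoxa7 and Hlf joined), against 11.6%. The number was 1 under the other 5 alternatives, where the share of genes compared ran from 2.27% to 5.37%. The median log2 ratio of the factors ran from -0.55 without Rn45s to -0.19 with a minimum mean RPKM of 5, which 4 factors reached. Less the median of all genes compared, it was -0.444 as reported, -0.435 without Rn45s and -0.284 with that minimum. Meis1 ran from -2.00 to -1.66. Another pseudocount or scaling gave 45 values of single genes, of which 41 were inside the gene's counting interval and 4 outside it with the same sign, while other minimums cannot change a gene's ratio. These were Lmo2 without Rn45s (-0.29) and after quantile normalization (-0.36), and Meis1 (-1.66) and Mecom (-0.38) with a pseudocount of 1. Hoxa9 and Hoxa10, whose intervals include 0, changed sign without Rn45s. Depth limits Hoxa5, Hoxa10 and Mecom, which had under 40 recovered reads in NTB-GMP. For Hlf the recovered number, also under 40, is a lower bound, against 231 reads when multiplied to the annotated length. No paired analysis was possible because there were no replicates to pair, and for the same reason none could be left out.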
